A study of Mus musculus with 2 samples.

Results

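The mouse adrenal gland was sampled by long-read RNA-seq, and the spliced GENCODE transcripts of 6000 nt or longer that were counted in it are described here. Each read follows a whole cDNA, or a part of one, across its splice junctions. The data come from wild-type C57BL/6J mice in a single group with 2 libraries, biological replicates 2 and 1, so no comparison between conditions exists, and the labels name no treatment. They give total RNA, female in a free-text description beside a sex field of not collected, no known age, separate biosamples and a shared donor entry. The members were all models that the tables class as annotated, with at least 2 exons and an annotated length of at least 6000 nt, whatever their count. There were 763 of them in 715 genes, among 22139 annotated models listed in either library. The annotated length used by this rule is that of the GENCODE transcript and not of the reads assigned to it.

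A cDNA read starts where reverse transcription began, usually at the poly(A) tail, and runs towards the 5′ end of the transcript. A read that stops early lacks the first exons, and a read that starts at an internal run of A or at an earlier polyadenylation site lacks the end of the last exon. In mammals most of a very long mRNA is usually 3′ untranslated region (UTR), the stretch after the stop codon that microRNAs and RNA-binding proteins use. Genes often have several polyadenylation sites in that region, so that the same junctions can belong to transcripts with different ends.

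Depth was 587861 reads in replicate 2 and 810239 in replicate 1. A count of 0 allows up to 3 reads, which is 5.10 CPM (reads scaled to a common library total) in replicate 2 and 3.70 CPM in replicate 1. The tissue label was checked with marker genes. All 5 cortex markers and all 5 medulla markers were listed in both libraries, and the kidney markers Umod, Slc34a1 and Kap had 0 reads in both. Macrophage markers had 111 reads in replicate 2 and 788 in replicate 1, endothelial markers 245 and 127, and adipocyte markers 20 and 83. Their part in the results below was not tested, and in bulk tissue fewer cells of a type and less RNA per cell cannot be told apart.

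The members owed their length to the last exon. They had a median of 12 exons and 7060 nt, with a range of 6002 to 123179 nt, and the last exon took a median of 5393 nt, or 74.3% of the model. The last exon held over 50% of the model in 650 members (85.2%). In the 748 members with a coding sequence, that sequence had a median of 2058 nt and the 3′ UTR a median of 4941 nt, and 11 members had a coding sequence of 6000 nt or more. The exons between the first and the last summed to a median of 1485 nt. These internal exons are the stretch that a read must cover to show every junction of a model. Ranges of nt here and below leave out their upper bound. For annotated models of 4000 to 6000 nt the median was 1557 nt of internal exons and 2683 nt of last exon, so that the medians of the members differed from these mainly in the last exon. Median GC content was 45.3% in the members, against 48.1% at 4000 to 6000 nt and 50.3% at 2000 to 3000 nt. A run of 12 A occurred in 33.6% of the members and in 12.9% of models of 4000 to 6000 nt.

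The first and the last junction of a few members show how far apart the ends of a splice pattern can lie. In each sequence the last 15 bases of the upstream exon are in lower case and the first 15 bases of the downstream exon are in capitals, 5′ to 3′ on the transcript's strand, from the GENCODE M21 transcripts on mm10. They are shown because a read has to span both to be assigned to the member in full. The collagen gene Col5a3 and the mitochondrial import gene Timm17a stand far apart in this range.
Col5a3-201, exons 1 and 2: cctggacgctggctgCAGAACCTGTGGACG
Col5a3-201, exons 66 and 67: catgatggctgtcggGTCCGGAAGGGACAG
Col4a1-201, exons 1 and 2: cgagcagctgcgaagGGCGATTGTGGTGGC
Col4a1-201, exons 51 and 52: aagcgagatgttcaaGAAGCCCACGCCATC
Acadsb-201, exons 1 and 2: cgtatgggcgggctgCTGAGAAGACGCTTC
Acadsb-201, exons 10 and 11: gagatgccaagatcgGTACAATATATGAAG
Timm17a-201, exons 1 and 2: cgcgagagagccgtgCCCCTGGCGAATTGT
Timm17a-201, exons 5 and 6: cacagtttcccaatgGCCCTCAGTTCACTG
Mrpl17-202, exons 1 and 2: ggctacgcggagaagCTCATCGATTATGGA
Mrpl17-202, exons 2 and 3: gacttctggctcacaGAGAAGGACTTGATC

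These pairs of junctions lie 4988 nt apart in Col5a3-201 and 4844 nt in Col4a1-201, but 1186 nt in Acadsb-201, 404 nt in Timm17a-201 and 69 nt in Mrpl17-202. On mm10, Col5a3-201 (ENSMUSG00000004098.7) lies on chromosome 9 from 20770050 to 20815067 on the minus strand, with 67 exons and 6119 nt. Timm17a-201 (ENSMUSG00000062580.9) lies on chromosome 1 from 135295213 to 135313778 on the minus strand, with 6 exons and 7280 nt, of which 6791 nt are the last exon. Models of about the same annotated length thus asked very different things of a read.

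**Figure D1:**
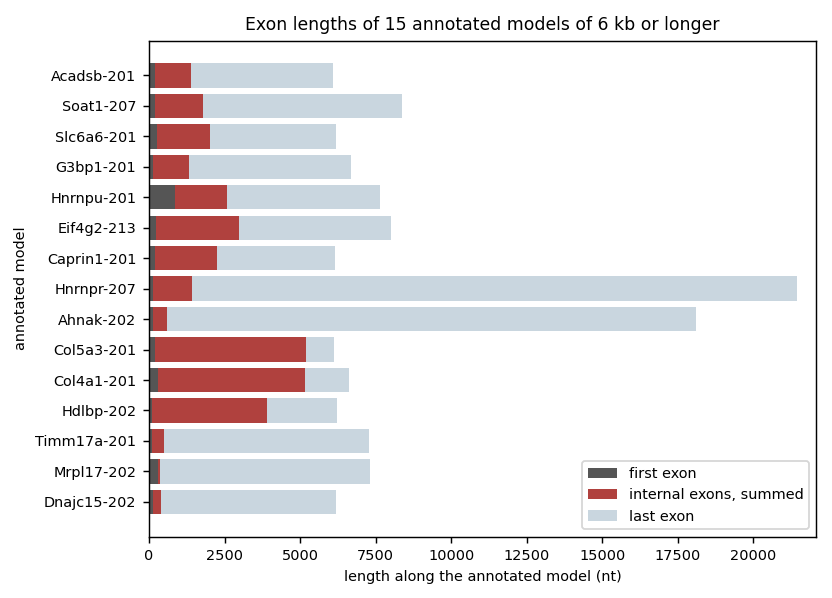
Exon lengths along the annotated model (nt) for 15 members, drawn to scale, with the first exon, the summed internal exons and the last exon stacked in transcript order. The last exon fills most of the bar except in Col5a3-201, Col4a1-201 and Hdlbp-202, where internal exons of 4988, 4844 and 3822 nt do.

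The members drew a small share of the reads, and the share differed between the libraries. Replicate 2 had 13577 reads on them, 2.31% of the library (95% Clopper-Pearson interval 2.27 to 2.35%), against 6738 reads or 0.832% in replicate 1 (0.812 to 0.852%). The mean was 1.57 ± 1.05% (SD, n = 2), a wide spread beside its size. Replicate 2 listed 696 members and replicate 1 listed 481, with 414 in both, which is 59.5% of the members of replicate 2 and 86.1% of those of replicate 1. Of all 22139 annotated models listed in either library, replicate 2 listed 16199 and replicate 1 listed 17140, so over all models replicate 1 listed more. A single read was all the evidence for 191 members, and 480 had under 10 reads over both libraries. The 20 highest members of each library held 39.3% of member reads in replicate 2 and 45.8% in replicate 1, and 8 members were among the 20 highest in both.

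The highest members coded for metabolic enzymes, transporters and RNA-binding proteins. Acadsb-201, whose product is an acyl-CoA dehydrogenase of branched-chain amino acid breakdown, had the highest mean, with 549 reads in replicate 2 and 180 in replicate 1, or 934 and 222 CPM. It was first in replicate 2 and seventh in replicate 1, where G3bp1-201 was first. Its gene (ENSMUSG00000030861.15) lies on chromosome 7 from 131410601 to 131448944. Soat1-207, the transcript of the enzyme that esterifies cholesterol for storage in lipid droplets, had 418 reads in replicate 2 and 151 in replicate 1. It lies on chromosome 1 from 156424525 to 156474331, and 6534 of its 8371 nt are 3′ UTR. Slc6a6-201, for the taurine transporter, had 454 reads in replicate 2 and 89 in replicate 1. All 3 were higher in replicate 2, by 3.05-fold (95% interval 2.57 to 3.63) for Acadsb-201, 2.77-fold (2.29 to 3.36) for Soat1-207 and 5.10-fold (4.06 to 6.48) for Slc6a6-201.

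Transcripts of stress granule and RNA-binding proteins formed a second group among the 15 highest members. G3bp1-201, for a core protein of stress granules, had 265 reads in replicate 2 and 336 in replicate 1. Its partner Caprin1-201 had 257 reads in replicate 2 and 20 in replicate 1, and the translation factor transcript Eif4g2-213 had 378 and 44. Hnrnpu-201, for a nuclear RNA-binding protein, had 439 reads in replicate 2 and 79 in replicate 1, and Ncl-201, for nucleolin, had 220 and 36. G3bp1-201 was near even between the libraries while the other members of this group were several times higher in replicate 2. The internal exons measured 1206 nt in G3bp1-201, 1730 nt in Hnrnpu-201, 2029 nt in Ncl-201, 2059 nt in Caprin1-201 and 2741 nt in Eif4g2-213. G3bp1-201 shares exon sequence with another gene on the same strand, so its reads are less certain.

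Hormone, membrane and transport genes filled most of the remaining places. Prlr-202, for the prolactin receptor, had 229 reads in replicate 2 and 137 in replicate 1, and overlaps another gene on the same strand. Ssr1-201, for a subunit of the translocon-associated complex of the endoplasmic reticulum, had 274 and 53, and Akap2-205, for an anchor of protein kinase A, had 257 and 48. Fech-208, for the last enzyme of heme synthesis, had 192 reads in replicate 2 and 116 in replicate 1. Rab18-205, for a GTPase of lipid droplets, had 145 and 101, Zfand5-205, for a zinc finger protein, 350 and 132, and Mapre1-201, for a microtubule plus-end protein, 115 and 155. Of the 15 highest members, 13 were called higher in replicate 2 and 2, G3bp1-201 and Mapre1-201, higher in replicate 1. These last 2 calls depend on the scaling of the libraries, since with total counts both log2 ratios turn to the other side of 0 and miss the threshold. Over all annotated models tested as described below, 35.3% were called higher in replicate 2 and 41.1% higher in replicate 1. The 15 members were ranked by mean CPM of the same counts, so the count of their calls is a description.

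**Figure D2:**
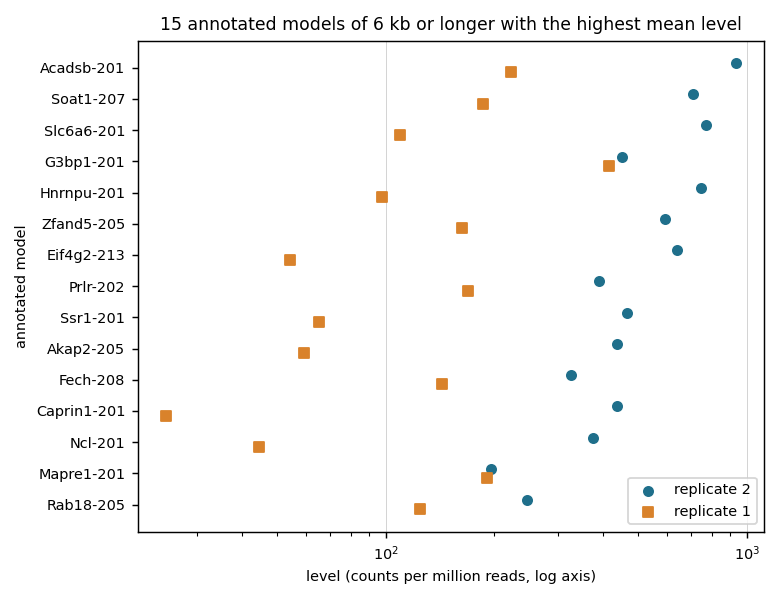
Level in CPM (log axis) of the 15 members with the highest mean, with circles for replicate 2 and squares for replicate 1. Acadsb-201 reached 934 CPM in replicate 2 and 222 in replicate 1, while G3bp1-201 and Mapre1-201 were close between the libraries, at 451 against 415 CPM and 196 against 191 CPM.

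Replicate 2 was set against replicate 1 model by model, for all 8291 annotated models with at least 10 reads over both libraries. The test was an exact two-sided binomial test with Benjamini-Hochberg adjustment over all of them, and a call needed an adjusted p under 0.05. With 1 library on each side it compares these libraries and their reads, with no replicate check. Of the members, 283 could be tested. Replicate 2 was higher for 164 of them (58.0%) and replicate 1 for 41 (14.5%), while over all annotated models tested 35.3% were called higher in replicate 2 and 41.1% higher in replicate 1. The members' median log2 ratio was 1.77, against -0.15 over all models tested. Annotated models of 3000 to 4000 nt had a median of 2.21 and those of 4000 to 6000 nt one of 2.04, so the longest class did not stand highest. Shorter models ran the other way, with medians of -4.64 under 1000 nt and -2.81 at 1000 to 2000 nt. In these classes 91.1% and 80.6% of models were called higher in replicate 1. The values over all models tested, here and elsewhere, mix these lengths, so they do not compare the members with models of like length. At 4000 to 6000 nt, 64.5% were called higher in replicate 2 and 12.1% higher in replicate 1. Scaling by total counts in place of TMM moves every log2 ratio up by 0.46, and then 194 members were called higher in replicate 2 and 34 higher in replicate 1, beside 42.1% and 36.2% of all models tested.

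Among the members, the ratio differed more by internal exons than by length. Medians of the log2 ratio were 1.91 at 6000 to 7000 nt, 1.69 at 7000 to 8000 nt, 1.54 at 8000 to 10000 nt and 1.61 at 10000 nt and over. By internal exons they were 0.37 under 1000 nt, 1.77 at 1000 to 2000 nt, 2.66 at 2000 to 3000 nt, 3.02 at 3000 to 4000 nt and 4.25 at 4000 nt and over. The last of these classes holds 6 members. With internal exons under 1000 nt, 43 of 118 members were called higher in replicate 2 and 35 higher in replicate 1. With 2000 nt or more of them, 48 of 53, 16 of 18 and 4 of 6 members were higher in replicate 2 in the 3 classes, and 0 were higher in replicate 1. Models of 4000 to 6000 nt ran like the members, with medians of 0.74 under 1000 nt, 1.84 at 1000 to 2000 nt and 2.92 at 2000 to 3000 nt of internal exons. Across the 283 members, Spearman's rho of the log2 ratio was 0.455 with internal exons, 0.471 with coding sequence, 0.331 with exon number, -0.316 with the last exon and -0.064 with length. Internal exons and coding sequence are related features that these values do not separate, and the values are given as a description because all members share the same libraries.

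**Figure D3:**
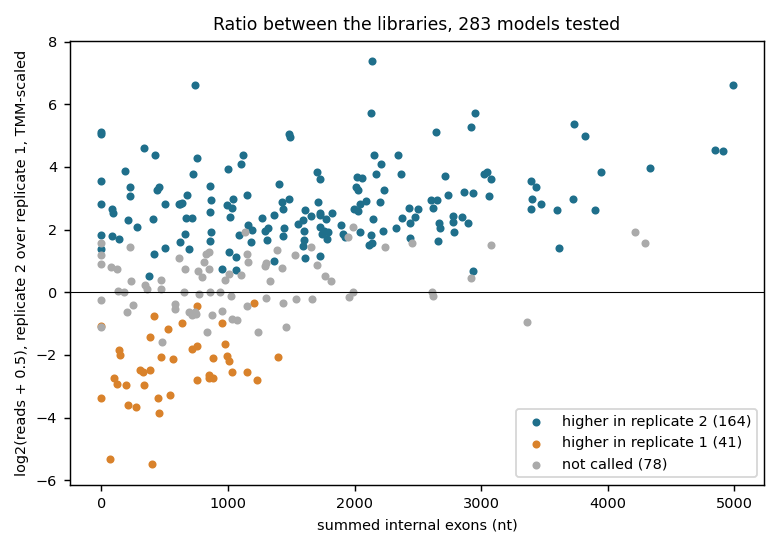
Log2 ratio of replicate 2 over replicate 1 (TMM-scaled reads with 0.5 added) against summed internal exons (nt) for the 283 members tested, coloured by call. The 41 members called higher in replicate 1 all lie at 1395 nt or less, and the 164 called higher in replicate 2 spread over the whole range.

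The reads themselves moved the same way. Members with internal exons under 1000 nt had 3967 reads in replicate 2 and 3871 in replicate 1, which is 29.2% (28.5 to 30.0%) of member reads in replicate 2 and 57.5% (56.3 to 58.6%) in replicate 1. Those with 2000 to 3000 nt had 3461 and 573 reads, or 25.5% and 8.50%. Those with 4000 nt or more had 240 reads in replicate 2 and 25 in replicate 1. Raw reads were thus nearly equal on members with internal exons under 1000 nt, which as a share of the whole library is 0.675% in replicate 2 and 0.478% in replicate 1. In the other classes they were lower in replicate 1.

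The 5 members with the highest ratios had reads in replicate 2 alone. Eef2k-201, for the kinase of elongation factor 2, had 83 reads in replicate 2 and 0 in replicate 1, at least 27.7-fold higher with 3 reads per library in place of 0. Kif3c-201, for a kinesin, had 49 and 0 reads, and Col5a3-201, for a chain of type V collagen, had 49 and 0, each at least 16.3-fold higher. Mms19-217, for a factor of iron-sulfur protein assembly, and Trim2-203, for a ubiquitin ligase, each had 26 reads in replicate 2 and 0 in replicate 1. This floor takes the other count as exact, and the binomial interval of Eef2k-201 starts at 22.0-fold. Kif3c-201 reached this place with internal exons of 743 nt, against 2130 to 4988 nt in the other 4. All 5 were picked by ratio from the same counts, and each met the read minimum of the test only through replicate 2. Their direction was thus set by the choice, and the floors and the interval are a description.

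Among members with at least 10 reads over both libraries, collagen transcripts had the largest internal exons. Col4a1-201, for a chain of type IV collagen, had 58 reads in replicate 2 and 2 in replicate 1, 29.0-fold higher (95% interval 7.67 to 245), with an adjusted p of 1.58e-14 by the exact binomial test. Its neighbour Col4a2-201 had 11 and 0 reads. Hdlbp-202, for the RNA-binding protein vigilin, had 78 and 2 reads, and Polg-201, for the mitochondrial DNA polymerase, 62 and 1. Fyco1-202, for an adaptor of autophagosome transport, had 23 reads in replicate 2 and 1 in replicate 1, and Rab3gap2-201 had 15 and 2. All 6 were called higher in replicate 2, like Col5a3-201, beside 35.3% of all models tested called higher there and 41.1% higher in replicate 1. Each of them reached 10 reads only through replicate 2, so these calls are a description. Kdm5b-201, for a histone demethylase, at 10 and 3 reads, and Uhrf1bp1l-201, at 9 and 2, missed the threshold with adjusted p of 0.113 and 0.0816 by the exact binomial test.

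The members highest in replicate 1 relative to replicate 2 had short coding sequences. Timm17a-201, for a subunit of the inner membrane import channel, had 4 reads in replicate 2 and 202 in replicate 1, 50.5-fold higher in replicate 1 (95% interval 19.4 to 187). Mrpl17-202, for a protein of the large mitochondrial ribosome subunit, had 3 reads in replicate 2 and 139 in replicate 1. Dnajc15-202, for a mitochondrial co-chaperone, had 14 and 183, and Mrps25-203, for a protein of the small mitochondrial ribosome subunit, 6 and 50. Ebpl-201 had 2 reads in replicate 2 and 30 in replicate 1, and 1700025G04Rik-201 had 1 and 21. The coding sequences of these 6 members run from 366 nt in 1700025G04Rik-201 to 621 nt in Ebpl-201. The 6 members were picked by ratio or gene share from the same counts. All but Dnajc15-202 met the read minimum of the test only through replicate 1, so their fold and direction are a description. The 41 members higher in replicate 1 had a median of 525 nt of internal exons and 744 nt of coding sequence, while the 164 higher in replicate 2 had medians of 1726 nt and 2154 nt.

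Among the members with most reads in replicate 1, Cdc37-201, for a co-chaperone of Hsp90, had 51 reads in replicate 2 and 222 in replicate 1. Rab11b-201, for a GTPase of recycling endosomes, had 48 and 202, and Glo1-206, for glyoxalase 1, had 68 and 185. These 3 were named for their rank in replicate 1, after their values were seen. All were called higher in replicate 1, beside 41.1% of all annotated models tested. The rank that picked them comes from the same counts, so these calls are a description. Their internal exons measured 882, 471 and 382 nt.

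The share of a gene's reads that fell on a member does not depend on library size, and was compared by Fisher's exact test, two-sided. The test covered 9963 annotated models, each in a gene that reached 10 reads in both libraries, with Benjamini-Hochberg adjustment over all of them. Of 327 members tested, 57 (17.4%) took a higher share of their gene in replicate 2 and 5 (1.53%) a higher share in replicate 1, against 8.26% and 4.62% of all annotated models. The median share was 32.4% in replicate 2 and 13.3% in replicate 1. The count rests on what the rest of the gene is taken to be, and so do the members that can be tested. Against spliced reads only, 29 of 231 members took a higher share in replicate 2 and 0 in replicate 1, beside 5.21% and 4.16% of all models tested. Against other annotated models it was 7 and 0 of 92, beside 3.55% and 3.63%.

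Several genes had most of their reads on the member in replicate 2 and elsewhere in replicate 1. Soat1-207 held 418 of the 574 reads of its gene in replicate 2 (72.8%, 95% interval 69.0 to 76.4%) and 151 of 329 in replicate 1 (45.9%, 40.4 to 51.5%). Models that the tables class as genomic, nearly all of 1 exon, took 46 reads of Soat1 in replicate 2 and 92 in replicate 1. Against spliced reads only, the share of Soat1-207 was still 15.6 percentage points higher in replicate 2, with an adjusted p of 0.000256 by Fisher's exact test. Against other annotated models the difference was 21.7 percentage points, with an adjusted p of 9.26e-16 by the same test. Ssr1-201 held 91.3% of its gene in replicate 2 and 41.7% in replicate 1, with 18 and 70 genomic reads. Against spliced reads only, the difference for Ssr1-201 was 4.18 percentage points and missed the threshold, with an adjusted p of 0.479 by Fisher's exact test. Genomic reads were thus more numerous in replicate 1 in both genes. For Ncl-201, at 87.0% in replicate 2 and 37.9% in replicate 1, incomplete models that show only part of the junctions took 19 and 54 reads.

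Other members with a higher share in replicate 2 had few reads in replicate 1. Bace1-201, for the beta-secretase, held 84 of 106 reads in replicate 2 and 5 of 39 in replicate 1, with 7 and 26 genomic reads. The deubiquitinase transcript Yod1-201 held all 16 reads of its gene in replicate 2 and 0 of 18 in replicate 1, where the 18 were genomic, and the protease transcript Ddi2-201, which overlaps another gene on the same strand, held 42 of 50 and 2 of 15. Gtpbp4-204, for a nucleolar GTPase, held 33 of 44 reads in replicate 2 and 18 of 117 in replicate 1, and there 96 of the 117 were on incomplete models. Impad1-201 held 10 of 15 and 0 of 10.

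The 5 members with a higher share in replicate 1 were Rab22a-201, Mrps25-203, Nmd3-201, Ccnd2-201 and Dnajc15-202. Ccnd2-201, for cyclin D2, held 54 of 156 reads in replicate 2 (34.6%) and 123 of 197 in replicate 1 (62.4%). Genomic models took 97 and 59 reads of Ccnd2. Against spliced reads only, the shares of Ccnd2-201 and Dnajc15-202 turn to the replicate 2 side and miss the threshold, and Mrps25-203 and Nmd3-201 miss it with the direction kept. Rab22a-201, for an endosomal GTPase, held 5 of 18 reads in replicate 2 and 57 of 75 in replicate 1. The small gene totals of Rab22a, Mrps25, Nmd3 and Dnajc15 in replicate 2, between 12 and 23 reads, leave wide intervals, such as 9.70 to 53.5% for Rab22a-201.

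GENCODE M21 holds 4081 spliced models of 6000 nt or longer, and the 763 listed here were compared with those that were not. Within genes that had at least 10 reads in a library, 465 of 1426 such models (32.6%) had a read in replicate 2 and 310 of 1125 (27.6%) in replicate 1. With internal exons under 1000 nt the share was 67.7% in replicate 2, with a 95% interval of 60.7 to 74.1%, and 67.0% in replicate 1, with one of 59.7 to 73.8%. At 2000 to 3000 nt it was 49.8% (42.8 to 56.8%) and 34.9% (27.3 to 43.0%), and at 4000 to 6000 nt 10.2% and 6.34%. The libraries were thus close for models with short internal exons and apart at 2000 to 3000 nt, where the intervals overlap only at their edges. At 6000 nt and over, 1 of 286 models was listed in replicate 2, Dysf-205 with 1 read, and 1 of 262 in replicate 1, Stab1-201 with 1 read. These 2 were the only members with internal exons of 6000 nt or more, in genes for a membrane repair protein and an endothelial and macrophage scavenger receptor.

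**Figure D4:**
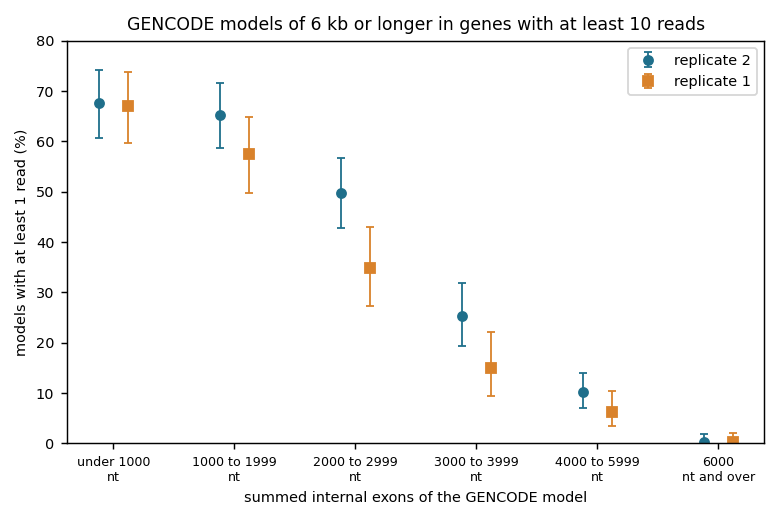
Share (%) of GENCODE models of 6000 nt or longer that had at least 1 read, in genes with at least 10 reads in the library, by summed internal exons, with circles for replicate 2, squares for replicate 1 and bars for 95% Clopper-Pearson intervals. Both libraries start near 67% and end under 1%, and replicate 2 lies above replicate 1 from 1000 to 6000 nt.

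Genes of known function, many with giant proteins, were followed in 11 lists with 372 genes, of which 280 have an annotated spliced model of 6000 nt or longer. Only 40 of the 280 had a member listed. In replicate 2, 141 of the 280 had at least 10 reads and 29 of those had a member read, and in replicate 1 the numbers were 113 and 17. Most of the genes with 10 or more reads thus had none on a member. In the 112 genes with at least 10 reads and no member read in replicate 2, 61.0% of 3307 reads were on incomplete models and 5.17% on other annotated models. In the 96 such genes of replicate 1, the shares of 3737 reads were 62.6% and 3.80%.

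The list of matrix and basement membrane genes has 25 genes with such a model, of which 6 had a member listed, with 142 member reads in replicate 2 against 3 in replicate 1. The 4 members tested reached 10 reads only through replicate 2, so their calls, all higher there, are not support for a change of the list. Besides Col5a3-201, Col4a1-201 and Col4a2-201 these included Nid1-201, for the linker protein nidogen, with 17 reads in replicate 2 and 1 in replicate 1. All reads of the listed genes, members or not, stood at 1332 in replicate 2 and 279 in replicate 1, so the genes differed along with the members. Members of the endothelial and macrophage list had 47 reads in replicate 2 and 14 in replicate 1, led by Flt1-203, for a receptor of vascular endothelial growth factor, with 42 and 13. Endothelial markers had 245 reads in replicate 2 and 127 in replicate 1, and their part in these list results was not tested.

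In the lipid list, Soat1-207 and Vldlr-207, for the very low density lipoprotein receptor, were tested and both were called higher in replicate 2, the second at 9 reads in replicate 2 and 1 in replicate 1. In the hormone and signaling list Prlr-202 was called higher in replicate 2, and Irs2-201, for insulin receptor substrate 2, was not called at 5 and 6 reads. In the RNA processing and translation list Eif4g2-213 was called higher in replicate 2, and Ago2-201, for the slicer of the microRNA pathway, at 10 and 3 reads was not. In the cytoskeleton list Kif1b-201 had 24 reads in replicate 2 and 6 in replicate 1, and Ahnak-202 had 25 and 2, both called higher in replicate 2. In the list of membrane traffic genes, Snx13-201 had 6 reads in each library and was the only member tested. Over the 11 lists, 15 members were tested, of which 12 were called higher in replicate 2 and 0 higher in replicate 1, beside 35.3% and 41.1% of all models tested. Many reached 10 reads only through replicate 2, so these counts are a description.

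In the chromatin, ubiquitin ligase and chromaffin lists 0 members reached the 10 reads a test needs. The chromatin list had 3 member reads in replicate 2 and 0 in replicate 1 on 48 genes with such models, although its genes had 835 and 840 reads in all. The ubiquitin ligase list had 2 and 1 member reads beside 1130 and 589 gene reads, and the chromaffin excitability list 5 and 1 beside 523 and 702. Talin 1, a link between integrins and actin, is an example of a gene with reads and no member, since 103 of the 114 reads of Tln1 in replicate 2 and 87 of 94 in replicate 1 were on incomplete models, and 0 on a member. Herc2, a giant ubiquitin ligase, had 36 of 40 reads on incomplete models in replicate 2 and 22 of 23 in replicate 1. Srrm2 and Son, large nuclear speckle proteins, had 38 and 49 reads in replicate 2 and 454 and 343 in replicate 1. Incomplete models held 17 and 25 of these reads in replicate 2 and 418 and 327 in replicate 1. Tln1, Herc2, Srrm2 and Son were named after their values were seen. The noncoding list, with 3 such genes, had 0 member reads in both.

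Incomplete models were counted in the genes whose most read annotated spliced model was a member. Models lacking the 5′ end took 8.64% (95% interval 8.28 to 9.02%) of 22271 reads in replicate 2 and 6.20% (5.82 to 6.59%) of 14962 in replicate 1. That total hides a steep gradient with internal exons. Under 1000 nt the share was 2.56% in replicate 2 and 1.97% in replicate 1, at 2000 to 3000 nt 9.79% and 10.1%, and at 4000 nt and over 36.9% (34.5 to 39.4%) and 31.1% (27.2 to 35.3%). Among spliced reads only, the order of the libraries turns in this last class, to 38.7% (36.2 to 41.3%) in replicate 2 and 41.2% (36.3 to 46.2%) in replicate 1, and these intervals overlap. All incomplete models together took 62.8% and 61.7% of reads in this last class. At 2000 to 3000 nt they took 19.8% in replicate 2 and 46.7% in replicate 1, while the share lacking the 5′ end was close in both.

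The tables do not record where reads on annotated models ended, so 3′ ends were read from unannotated spliced models that share the last junction of a member. Such a model carries an end of its own in the deposited annotation. Where several listed annotated models share that junction, the longest was taken, a choice that can only lengthen the distance to the annotated end. How reads with differing ends were merged into models is not given in the sources used here. These ends fell far short of the annotated ones. In replicate 2, 85.2% (95% interval 84.2 to 86.2%) of 5034 such reads were on models that ended more than 300 nt before the member's end, and in replicate 1 89.5% (88.0 to 90.9%) of 1774. For annotated models of 4000 to 6000 nt the shares were 42.9% in replicate 2 and 59.8% in replicate 1, and at 2000 to 3000 nt 6.42% and 17.3%. Annotated last exons there had medians of 1888 and 2152 nt, and of 815 and 846 nt, in replicate 2 and replicate 1. Shorter last exons leave less room for an end more than 300 nt short. Taking the longest model also moves reads to the longer classes. These shares thus do not compare the classes on equal terms. The median last exon of these unannotated models was 933 nt in replicate 2 and 687 nt in replicate 1, where the members' own last exons had medians of 4174 and 4799 nt, each counted once per unannotated model.

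Many members had unannotated models with the same end in both libraries. Short reads are here the reads on unannotated models that ended more than 300 nt before the member's end. Each takes the end of its model. For Soat1-207, with an annotated last exon of 6591 nt, 90 of 93 short reads in replicate 2 and 24 of 32 in replicate 1 were on models that ended after 1323 nt of it. For Slc6a6-201, with 4153 nt, 77 of 84 short reads in replicate 2 were on models ending at 574 nt, and 25 of 25 in replicate 1 at 575 nt. For Prlr-202, with 8729 nt, 15 of 15 and 16 of 17 were on models ending at 1108 nt. In Soat1-207 and Prlr-202 another annotated transcript end lies within 300 nt of that point, and in Slc6a6-201 none does. In G3bp1-201 and Hnrnpu-201 the libraries differed, with most read ends at 866 and 687 nt in G3bp1-201 and at 1113 and 837 nt in Hnrnpu-201, each in replicate 2 and replicate 1.

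Over the 145 members with at least 3 short reads in each library, the most read end lay within 10 nt in 85 (58.6%). Where no other annotated end was within 300 nt in either library, this held for 23 of 54 members (42.6%). The ends were equal to the base in 6 of these 54. They were equal in 58 of the 91 members with another annotated end that near in either library. How far the building of models set these ends was not tested. Of all short reads, 50.1% in replicate 2 and 55.9% in replicate 1 were within 300 nt of another annotated end. The poly(A) signals AATAAA or ATTAAA, searched on the transcript's strand in the 50 bases before an end, were found at 39.9% of 774 short end positions in replicate 2 and 41.0% of 505 in replicate 1. Over every position of the same last exons more than 300 nt before the end, 5.38% had one. At least 12 A in the next 20 bases followed 27.0% of the short ends in replicate 2 and 25.2% in replicate 1, against 1.58% of all positions. Neither was found at 36.8% and 37.8%. A motif is a match of letters and not a shown site of cleavage or priming.

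**Figure D5:**
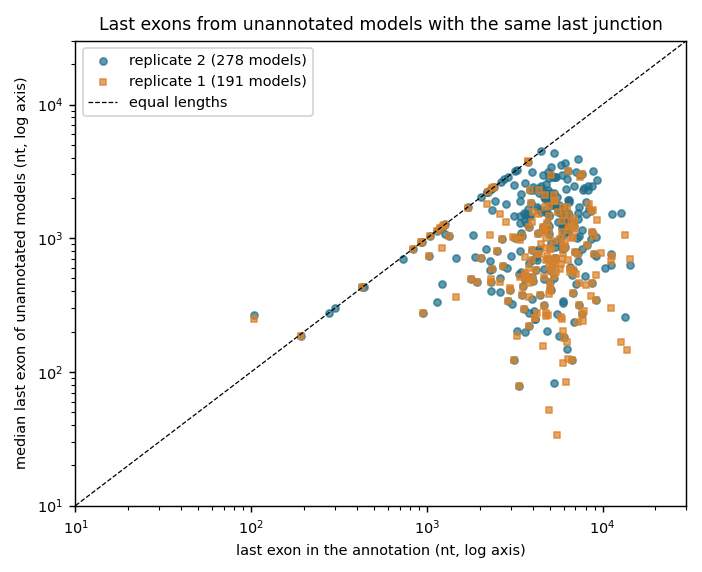
Median last exon, over reads, of the unannotated spliced models that share a member's last junction against the member's annotated last exon, both in nt on log axes, with circles for 278 members in replicate 2 and squares for 191 in replicate 1, each with at least 3 such reads in that library and 5 over both. Most points lie far under the dashed line of equal lengths, and the median was more than 300 nt short in 245 members in replicate 2 and 172 in replicate 1.

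Unannotated models, whose length follows from reads, seldom reached 6000 nt. There were 72 of them with 96 reads in replicate 2 and 21 with 25 reads in replicate 1, the longest at 7133 and 8276 nt. Among spliced reads, models of 6000 nt or longer took 0.0652% (95% interval 0.0519 to 0.0810%) of the unannotated ones in replicate 2 and 0.0186% (0.0116 to 0.0281%) in replicate 1. On annotated models the same shares were 3.27% (3.21 to 3.32%) and 1.17% (1.14 to 1.20%).

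The longest members were extreme cases of a single exon. D10Wsu102e-201, a model of 4 exons and 123179 nt, had 46 reads in replicate 2 and 4 in replicate 1, but its coding sequence is 558 nt and its internal exons sum to 224 nt. D1Ertd622e-201, with 40378 nt, had 14 and 2 reads and 90 nt of internal exons. Ahnak-202, for a giant scaffold protein, is different in kind, with 16971 nt of coding sequence, a last exon of 17498 nt and internal exons of 456 nt. D10Wsu102e-201 and D1Ertd622e-201 were named after their values were seen. A full set of junctions in any of these 3 could be read within the first 1000 nt, and no count here shows that the rest of the model was present.

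Among members with at least 10 reads in each library the longest was Hnrnpr-207, for an RNA-binding protein, at 21452 nt with 27 reads in replicate 2 and 14 in replicate 1. Pnpla8-201, for a calcium-independent phospholipase, followed at 13507 nt with 164 and 32 reads, and Prep-201, for prolyl endopeptidase, had 10933 nt with 167 and 44. Exoc5-207, Mettl16-205 and Usp15-211 were also called higher in replicate 2. Ncbp3-201, Tmbim1-202, Agpat5-202 and Mkln1-201 were not called, nor was Hnrnpr-207, and Mkln1-201, for muskelin, had 65 reads in each library. Of all 28 members of 10000 nt or longer that were tested, 16 (57.1%) were called higher in replicate 2 and 4 (14.3%) higher in replicate 1. These shares were close to the 58.0% and 14.5% of all members tested, so the longest members did not stand apart. Over all annotated models tested they were 35.3% and 41.1%, and at 4000 to 6000 nt 64.5% and 12.1%.

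Members that share a gene are not independent. They occurred in 44 genes, most often as a pair, and Akap2 had 4. Its members Akap2-205 and Akap2-206 had 257 and 112 reads in replicate 2 and 48 and 14 in replicate 1, while Akap2-202 had 5 and 5 and Akap2-204 had 23 and 12. Internal exons measured 2476 and 2655 nt in the first pair and 179 and 0 nt in the second. The first pair had the larger ratios, but Akap2 is a single gene of the 44. Whether members of the other genes follow the same order was not tested. Few members were noncoding. Tug1-201, a long noncoding RNA with 2 exons, had 22 reads in replicate 2 and 47 in replicate 1, and was called higher in replicate 1.

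At the edge of the rule, the tested models just inside were Tmem106b-201 with 6002 nt, at 20 reads in replicate 2 and 14 in replicate 1, Xpo1-202 with 6004 nt, at 18 and 1, and Xpot-203 with 6005 nt, at 13 and 1. Just outside were Gnb4-205 with 5997 nt, at 27 and 18 reads, Stxbp4-207 with 5985 nt, at 22 and 3, and Tomm70a-201 with 5964 nt, at 107 and 34. Exons of 67 members overlap an exon of another gene on the same strand and those of 214 overlap one on the other strand, 266 in all. Whether counting used strand is not given in the sources used here, so their reads could belong in part to the other gene. Of the members named above by rule, G3bp1-201, Prlr-202, Akap2-205, Rab18-205, Fyco1-202, Ddi2-201 and Usp15-211 overlap a gene on the same strand. Overlap on the other strand holds for Col4a1-201, Col4a2-201, Polg-201, Rab3gap2-201, Eef2k-201, Kif3c-201, Mms19-217, 1700025G04Rik-201, Yod1-201, Bace1-201, Gtpbp4-204, Rab22a-201, Mrps25-203, Ccnd2-201, Nid1-201, Irs2-201, Ago2-201, Hnrnpr-207, Exoc5-207, Usp15-211, Mkln1-201, Tmbim1-202 and Agpat5-202.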

How the data were processed

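Long-read RNA-seq of adrenal total RNA was available for replicates 2 and 1, grouped by the labels. For each library the authors deposited TALON read counts by transcript model, not normalized, on mm10, and the accompanying file notes name GENCODE M21. Models at 0 are not listed. The sources used here do not give the aligner, the read correction, the platform or the cDNA preparation. TALON assigns a read to an annotated model by its junctions, so the length of a model is not that of its reads. All 22139 annotated models had the same exons in the deposited annotations and in GENCODE M21.

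From the counts, CPM used all reads of a library. Exon lengths and coding sequences came from GENCODE M21, with the stop codon counted as coding. The libraries were compared by the exact binomial test with shares from TMM sizes (edgeR 4.0.16), and gene shares by Fisher's exact test (SciPy 1.17.1, Python 3.11.15), both tested on simulated data. Log2 ratios add 0.5 reads. Folds divide TMM-scaled reads and take the exact interval of the binomial share, so they differ from the ratio of 2 CPM values by a constant factor. Whether the biosamples come from separate animals is not clear from the labels, and p-values measure only these 2 libraries. Intervals and floors cover counting error only. Other scalings (total counts, DESeq2 1.42.0 size factors), read minimums and denominators were tried. The analysis of 3′ ends and its alternatives were added after seeing the data.

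Named members were the 15 highest by mean CPM, the 10 longest with at least 10 reads in each library, the 10 with the largest internal exons, the 5 largest called differences each way in ratio and in gene share, the edge of the rule, and the top 3 of each list, and the text gives those with enough reads to describe. Members and lists were chosen with earlier results of these data known. Some members that this rule names are not reported here.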

Additional observations from a re-analysis of the deposited data

How the results depend on the processing

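Members listed fell to 332 in replicate 2 with at least 5 reads, to 315 and 188 in replicate 1 with at least 2 and 5 reads, and to 267 and 155 in both libraries. With at least 30 reads over both libraries, 93 members were called higher in replicate 2 and 27 higher in replicate 1 among 147 tested, beside 39.0% and 48.2% of all models tested. With no filter on reads, 157 (20.6%) and 38 (4.98%) of all 763 members were called, beside 12.7% and 15.9% of all models. The other settings, each with 283 members tested, gave 159 to 194 and 34 to 41. Beside these, 33.7 to 42.1% and 36.2 to 41.1% of all models were called. With at least 30 reads of the gene, 33 of 110 members took a higher share in replicate 2 and 1 in replicate 1, beside 12% and 6.50% of all models. Against spliced reads only these counts were 29 and 0 of 231, beside 5.21% and 4.16%, and against other annotated models 7 and 0 of 92, beside 3.55% and 3.63%. Among spliced reads, 9.70% lacked the 5′ end in replicate 2 and 8.60% in replicate 1. The share of reads on members was 2.31% without replicate 1 and 0.832% without replicate 2, each with no test. Under total counts the log2 ratios of G3bp1-201 and Mapre1-201 were 0.12 and 0.034. Dnajc15-202 held 1.08 percentage points more of its gene in replicate 2 than in replicate 1 against other annotated models and 5.18 against spliced reads, and Ccnd2-201 1.74 more against spliced reads. These differences missed the threshold. The cause was not tested. DESeq2 size factors were 1.00 in both libraries and changed no call of a named member. Short 3′ ends ran from 84.2% to 86.0% in replicate 2 and from 88.6% to 90.3% in replicate 1 with other limits. Members at 1 or a few reads cannot be compared at this depth. No paired analysis was possible because there is a single group.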
